A study of Mus musculus with 8 samples.

Results

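Collagens and laminins are the main structural proteins of the extracellular matrix, and integrins are the cell surface receptors that bind them. The genes described here are those whose symbol names a collagen chain, a laminin chain or an integrin subunit, without integrin-binding proteins: 38 collagen, 9 laminin and 25 integrin genes, 72 of the 16390 named genes on the array. One of them, Itgbl1, encodes a protein that resembles a beta subunit and is not an integrin chain. The brightest probe stood for each gene, which left out 1 of the 2 probes of Col15a1. Values are the spot intensity on a linear scale, with a median between 19.99 and 20.01 on each array, and changes are differences of log2 intensity. Probes differ in brightness, so levels are compared between arrays for 1 gene and not between genes.

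The samples are mouse cells with a Nanog-GFP reporter, a green fluorescent label read from a pluripotency gene, and the series' design text states that pluripotent candidates were purified by flow sorting during culture. There were 4 groups of 2 arrays: primordial germ cells (PGC, the embryonic precursors of eggs and sperm) at E11.5 (named by embryonic day), germ cells cultured for 3 days (Day3) or 6 days (Day6), and embryonic germ (EG) cells, a pluripotent cell type derived from germ cells. The sample names place Day3, Day6 and EG in 2i+A83, that is PD325901 at 1 µM, CHIR99021 at 3 µM and A83-01 at 250 nM, which block MEK, GSK3 and the Activin, Nodal and TGF-beta receptors, in a medium of Knockout DMEM, 15% KSR (a serum replacement), bFGF and LIF. The labels put that same culture text on the E11.5 PGC arrays, and they give neither the sex nor the number of embryos, nor the number of EG lines.

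Laminins are trimers of 1 alpha, 1 beta and 1 gamma chain, and they form the sheet of the basement membrane together with the network of collagen IV. Nidogens link the laminin and collagen IV networks. Integrins are dimers of an alpha and a beta subunit: alpha 6, alpha 3 and alpha 7 with beta 1 bind laminins, alpha 1, alpha 2, alpha 10 and alpha 11 with beta 1 bind collagens, and alpha V and alpha 5 bind fibronectin or vitronectin. Fibrillar collagens (types I, II, III, V and XI, among others) build the fibrils of connective tissue and are made mainly by fibroblasts and other mesenchymal cells. Mouse pluripotent cells attach to laminins, and the first basement membrane of the embryo, which lies under the epiblast, contains laminin with the alpha 1 or alpha 5 chain.

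Of the 8 genes with a change past the test, 4 had a promoter in the RefSeq table (build GRCm38.p6). Each sequence below is the 250 bases before the start site on the gene's strand. That of Lama5, the laminin alpha 5 chain that rose in culture, lies at chr2:180225860-180226109 (minus strand). Itgav, the integrin alpha V subunit that was lower in EG, has chr2:83724147-83724396 (plus strand). Col5a3, a collagen V chain that fell, has chr9:20815068-20815317 (minus strand), and Col6a4, a collagen VI chain that was high in EG, has chr9:106096692-106096941 (minus strand). Capitals mark the GC box GGGCGG or its reverse complement CCGCCC.
Lama5: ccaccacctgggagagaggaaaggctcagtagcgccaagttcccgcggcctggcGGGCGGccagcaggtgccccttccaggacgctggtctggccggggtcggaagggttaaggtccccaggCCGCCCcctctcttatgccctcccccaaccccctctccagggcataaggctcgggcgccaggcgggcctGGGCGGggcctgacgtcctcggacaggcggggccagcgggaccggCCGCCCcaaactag
Itgav: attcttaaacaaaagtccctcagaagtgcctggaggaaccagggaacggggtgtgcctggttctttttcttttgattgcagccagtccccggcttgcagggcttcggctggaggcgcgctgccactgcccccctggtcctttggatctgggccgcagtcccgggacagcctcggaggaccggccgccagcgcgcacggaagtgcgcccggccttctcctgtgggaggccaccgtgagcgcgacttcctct
Col5a3: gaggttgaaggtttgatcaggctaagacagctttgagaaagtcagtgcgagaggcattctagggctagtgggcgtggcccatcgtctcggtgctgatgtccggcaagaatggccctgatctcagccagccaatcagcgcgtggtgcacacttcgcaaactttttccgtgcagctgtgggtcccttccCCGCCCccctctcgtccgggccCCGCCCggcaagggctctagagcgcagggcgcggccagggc
Col6a4: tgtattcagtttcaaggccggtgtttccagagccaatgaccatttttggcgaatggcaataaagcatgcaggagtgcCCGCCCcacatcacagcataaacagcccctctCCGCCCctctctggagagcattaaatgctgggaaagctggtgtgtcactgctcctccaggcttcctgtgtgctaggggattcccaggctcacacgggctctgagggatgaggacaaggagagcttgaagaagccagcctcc
The GC box was found 4 times before Lama5, 2 times before Col5a3, 2 times before Col6a4 and 0 times before Itgav. Of all 32851 windows of this length in the table, 32.7% held it on either strand, and so did 28 of the 58 windows of the collagen, laminin and integrin genes (48.3%, from 53 genes). The TATA box TATAAA was in none of the 4 sequences (12.4% of all windows on either strand), and CCAAT was found 1 time each before Col5a3 and Col6a4 (33.8% of all windows). In these 4 sequences no CCAAT overlapped a GC box. A match of letters does not show that a factor binds there.

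Each array gave values for 21126 to 22404 of its 23473 probes. Of the 72 genes, 61 had a value on all 8 arrays, 39 lay above an intensity of 4.24 on all of them (the level under which the dimmest 5850 probes lie), and 12 were below it or without a value on every array. For dim values, the sources used here do not say which are above background. The array names fall into 2 series, A (EG replicates 1 and 2 with the first replicate of the other groups) and B (their second replicate), and in those 3 groups same-series arrays deviated from their group means together. Germ cell marker Ddx4 was at 626 and 498 in E11.5 PGC and between 175 and 277 on the other arrays, and Nanog, the gene of the reporter, lay between 1520 and 8992 on all arrays. Summed over 6 markers of gonadal somatic cells measured on all arrays, the intensity lay between 37.0 and 53.6. Sox9 alone lay between 13.4 and 22.9, and Fst was at 23.4 on Day6 replicate 1. The sum leaves out markers of that list without a value on some array. Of these, Lhx9 was at 10.5 and 8.47 in E11.5 PGC and at or under 3.78 elsewhere. Gata4, Amh and Nr5a1 were at or under 5.55 on every array with a value.

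**Figure D1:**
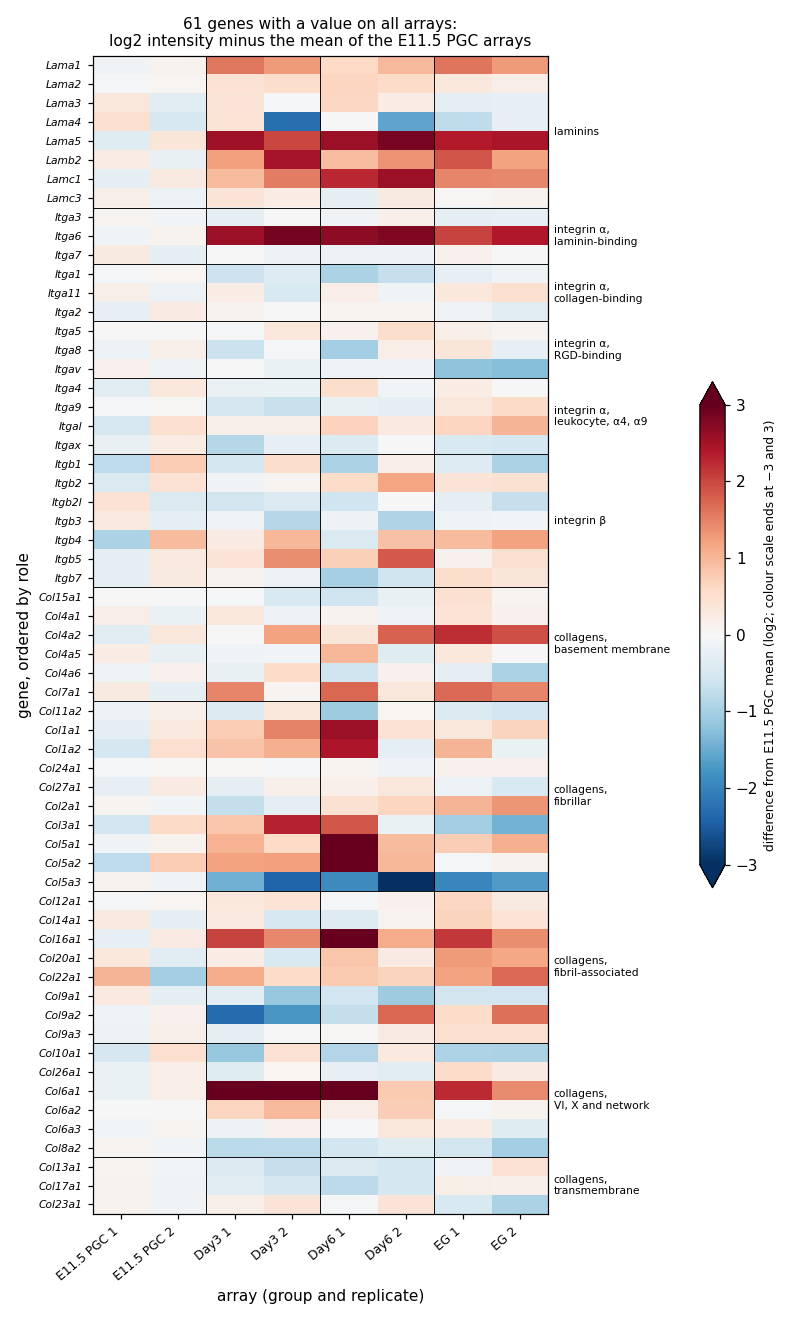
Log2 intensity of the 61 genes with a value on all 8 arrays, each minus its mean over the E11.5 PGC arrays; rows are genes ordered by role, columns are arrays, red is higher and blue is lower. Lama5, Lamc1 and Itga6 are red on every cultured array, Col5a3 is blue on them, and several fibrillar collagens are darkest on Day6 replicate 1 alone.

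The comparisons with E11.5 PGC ask what changes when germ cells enter culture and become pluripotent lines. A gene was called at an adjusted p under 0.05 in limma, a linear model per probe, with Benjamini-Hochberg adjustment over all probes tested. At Day3, 2 of 63 genes tested were higher and 0 lower, beside 2.08% of all probes called (1.33% higher and 0.754% lower). At Day6, 3 were higher and 1 lower of 63, beside 8.61% of all probes (4.34% higher and 4.28% lower). In EG, 6 were higher and 1 lower of 65, beside 11.2% of all probes (5.57% higher and 5.61% lower). The shares called among these genes were thus of the order of the background, and the 8 genes called in any of these comparisons were Lama1, Lama5, Lamc1, Itga6, Itgav, Col2a1, Col5a3 and Col6a4. With a block for array series, the counts were 5 higher and 1 lower at Day3 (8.34% of all probes called, 4.34% higher), 9 and 3 at Day6 (23.8%, with 9.50% and 14.3%), and 11 and 3 in EG (23.6%, with 9.24% and 14.4%), and all 13 calls of the model without the block were kept. EG has arrays in series A only, so its blocked values assume a series difference of equal size in all groups. All 3 comparisons share the E11.5 PGC arrays. The median change of all probes was -0.13 at Day3, -0.16 at Day6 and -0.16 in EG, and that of the collagen, laminin and integrin genes was -0.01, 0.14 and 0.17.

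Between Day6 and Day3, 0 of 64 genes were called by limma, beside 0% of all probes; at an unadjusted p under 0.05, 3 were higher (Lamc1, Col2a1 and Col9a2) and 1 was lower (Itgb7). Between EG and Day6, 0 of 64 were called beside 0.169% of all probes (0.139% higher and 0.0298% lower), with 5 higher and 5 lower unadjusted. Unadjusted counts, here and below, have no background beside them, because all probes were not counted at that threshold. A share of about 0.05 would pass it without any change, so genes named with these counts are not calls. At Day6 and in EG against E11.5 PGC a larger share of all probes passed it, since 8.61% and 11.2% passed the adjusted threshold. Unadjusted counts there cannot be read as an excess. With the block, 1 gene was called higher at Day6 than at Day3 (1.80% of all probes, 0.974% higher and 0.829% lower), and 1 higher and 1 lower in EG than at Day6 (1.96%, with 1.25% and 0.716%). There are 2 arrays per group, which limits how small a change can be called. The labels do not say whether the 2 arrays of a group came from separate animals or cultures, so the p-values measure the spread between arrays, which may be technical.

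**Figure D2:**
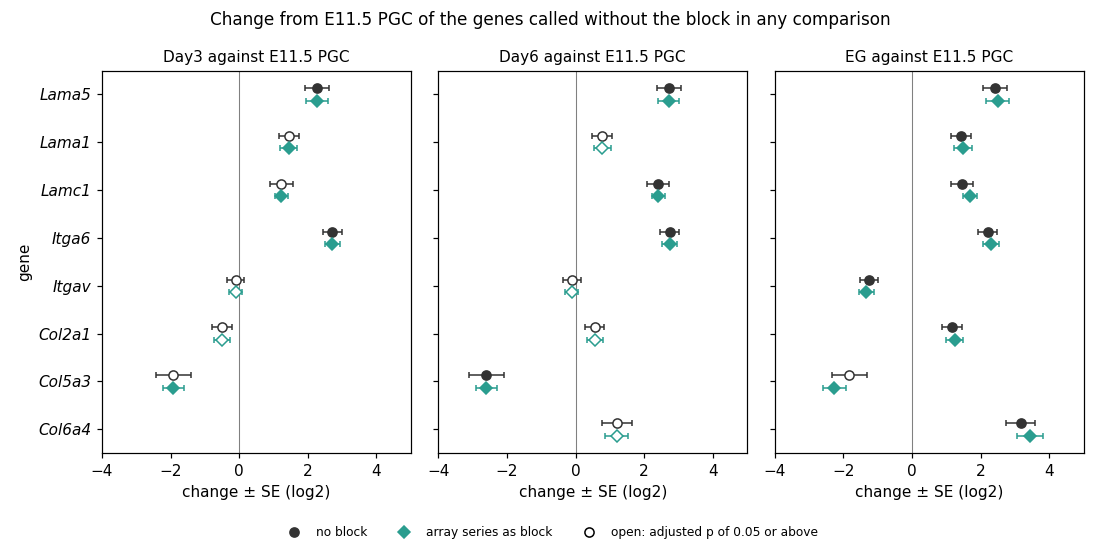
Log2 change from E11.5 PGC (± SE of the model) at Day3, Day6 and in EG for the 8 genes called without the block in any comparison; circles are the model without the block, diamonds the blocked model, and filled symbols have an adjusted p under 0.05. Itga6 and Lama5 are filled in all 3 panels under both models, and Itgav is below 0 by more than its error in EG alone.

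Most laminin chains had a change above 0 after culture. The median change of the 8 laminin genes tested was 0.86 at Day3, 0.69 at Day6 and 0.85 in EG, beside medians of -0.13, -0.16 and -0.16 over all probes, and 7, 6 and 6 of the 8 had a change above 0. Without the block, 1 laminin gene rose at Day3, 2 at Day6 and 3 in EG, and none fell, beside 2.08%, 8.61% and 11.2% of all probes called. All of these are RNA levels in bulk samples, in which fewer cells of a type and less RNA per cell cannot be told apart.

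Lama5, the alpha 5 chain, had an intensity of 9.42 and 15.7 in E11.5 PGC, 70.5 and 49.0 on the Day3 arrays, 72.7 and 87.9 on the Day6 arrays and 63.1 and 66.5 on the EG arrays. Every cultured array lay above both E11.5 PGC arrays. Lama5 rose by 2.27 ± 0.35 (log2, SE) at Day3 (limma adjusted p = 0.027), 2.72 ± 0.35 at Day6 (adjusted p = 0.0059) and 2.41 ± 0.35 in EG (adjusted p = 0.0085). Within array series A and B the Day6 change was 2.95 and 2.48. The Day6 call held without each of the 8 arrays in turn. The Day3 call was lost without either E11.5 PGC array, either Day3 array or either EG array (adjusted p up to 0.155), and the EG call without E11.5 PGC replicate 1 or either EG array (up to 0.0894).

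Lamc1, the gamma 1 chain of most laminins, had an intensity of 49.2 and 71.0 in E11.5 PGC, then 113 and 170.1 at Day3, 284 and 348 at Day6 with 163 and 161 in EG. The Day6 arrays were above all others. Lamc1 rose by 2.41 ± 0.33 at Day6 (limma adjusted p = 0.0071) and by 1.45 ± 0.33 in EG (adjusted p = 0.033). At Day3 its change was 1.23 ± 0.33 (adjusted p = 0.13; with the block 0.018), and from Day3 to Day6 it was 1.18 ± 0.33 (adjusted p = 0.27; with the block 0.044). The change from Day3 to Day6 was 1.33 (series A) and 1.03 (series B), and its blocked call was lost without any 1 of the 8 arrays (adjusted p up to 0.278). The blocked Day3 call was lost without either E11.5 PGC or either Day3 array (adjusted p up to 0.131). The Day6 call against E11.5 PGC was lost only without E11.5 PGC replicate 1 (adjusted p = 0.054), and the EG call without any of the 4 arrays compared (up to 0.193).

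Lama1, the alpha 1 chain found with alpha 5 in embryonic basement membranes, had an intensity of 13.9 and 16.0 in E11.5 PGC, 45.0 and 36.4 on the Day3 arrays, 22.5 and 29.1 on the Day6 arrays and 45.4 and 35.9 on the EG arrays. The Day6 arrays lay between those of E11.5 PGC and those of Day3 and EG, with no overlap. Lama1 rose by 1.44 ± 0.29 in EG (limma adjusted p = 0.025), a call lost without any of the 4 arrays compared (adjusted p up to 0.176). At Day3 the change was also 1.44 ± 0.29 (adjusted p = 0.060; with the block 0.022), and the blocked call was lost without either E11.5 PGC or either Day3 array (up to 0.147). Its change at Day6 was 0.78 ± 0.29 (adjusted p = 0.16).

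Lamb2, the beta 2 chain, had an intensity of 38.3 and 27.7 in E11.5 PGC, then 76.4 and 184 at Day3, 61.6 and 83.4 at Day6 with 120 and 75.3 in EG. All cultured arrays were above E11.5 PGC, but the Day3 arrays stood far apart. The change was 1.86 ± 0.48 at Day3 (limma adjusted p = 0.12; with the block 0.049) and 1.54 ± 0.48 in EG (adjusted p = 0.086; with the block 1.75 ± 0.46 and adjusted p = 0.038, and 1.31 in series A). The blocked Day3 call was lost without any 1 of the 8 arrays (adjusted p up to 0.261), and the blocked EG call without any array except E11.5 PGC replicate 1 (up to 0.154). Lamb1, the usual partner of gamma 1 in embryonic laminins, was not analysed here.

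Lamb3, the beta 3 chain of an epithelial laminin, had no value on either E11.5 PGC array, then 3.25 and 1.91 on the Day3 arrays, 5.29 and 3.04 on the Day6 arrays and 12.6 and 6.34 on the EG arrays, so it was tested only among the cultured groups. Its change from Day6 to EG was 1.16 ± 0.50 (limma adjusted p = 0.40). Lama3, the alpha 3 chain of the same laminin, lay between 54.8 and 108 on all arrays, and its groups overlapped in most comparisons (change at Day6 0.43 ± 0.34, adjusted p = 0.51). Lama2, the alpha 2 chain known from muscle, lay between 3.57 and 5.77, and Lamc3 between 2.10 and 3.38. Lama4, the alpha 4 chain known from vessels, was at 4.62 and 2.40 in E11.5 PGC, 4.42 and 0.690 on the Day3 arrays, 3.29 and 1.11 on the Day6 arrays and 1.98 and 2.80 on the EG arrays. In all 3 groups with arrays in both series, its series A array was the brighter one.

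Markers of parietal and visceral endoderm, cells that make much laminin and collagen IV, were followed beside these genes. Over the 7 markers of that list measured on all arrays, the intensities summed to 268 and 289 in E11.5 PGC, then 680 and 456 at Day3, 731 and 516 at Day6 with 327 and 442 in EG. Sparc made up most of that sum (226 and 247 in E11.5 PGC, between 267 and 647 on the cultured arrays). Gata6 was at 21.2 and 19.8 in E11.5 PGC and between 28.8 and 85.3 on the cultured arrays. Dab2 was at 2.85 and 4.14 in E11.5 PGC, 9.43 and 3.36 on the Day3 arrays, 22.8 and 4.74 on the Day6 arrays and 7.03 and 3.73 on the EG arrays. Sox17 lay between 1.29 and 7.17, Sox7 between 2.63 and 6.52, Hnf4a between 2.36 and 7.51 and Gata4 at or under 5.55 where it had a value. Afp had a value on 4 arrays, none above 2.56. Of the 9 list genes tested, 1 (Hnf4a) was called in EG without the block, beside 11.2% of all probes. At Day3 and at Day6, 0 of 8 were called, beside 2.08% and 8.61% of all probes. With the block 2 were called in EG and 2 at Day6, beside 23.6% and 23.8% of all probes. The part of such cells in the laminin changes was not tested.

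**Figure D3:**
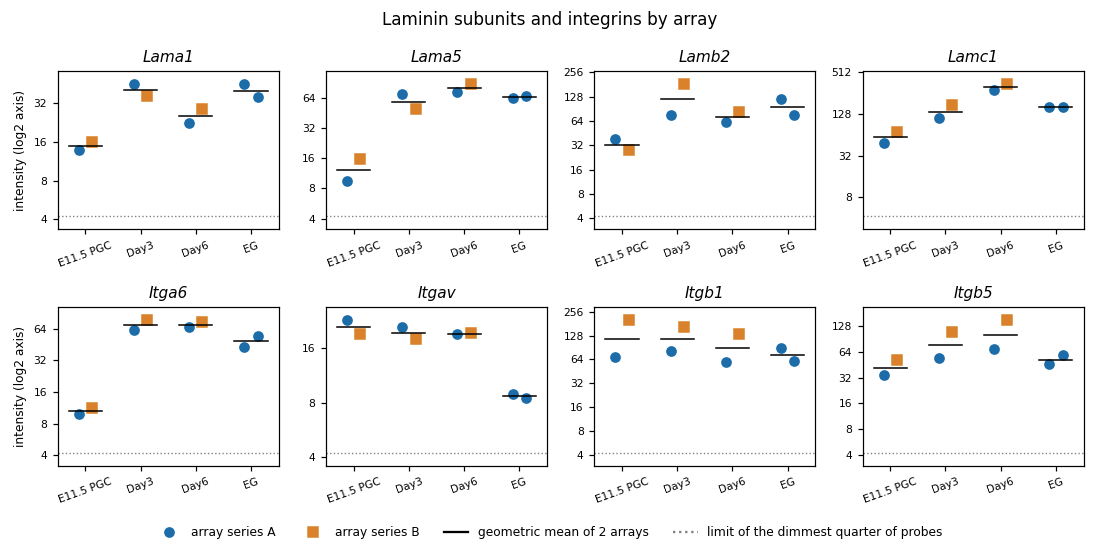
Intensity (log2 axis) of 4 laminin and 4 integrin genes on each array; circles are array series A, squares series B, bars the geometric mean of the 2 arrays of a group, and the dotted line the intensity of 4.24 under which the dimmest 5850 probes lie. Lama5, Lamc1 and Itga6 lie above E11.5 PGC on all cultured arrays, Itgav is lower on both EG arrays alone, and in each of the first 3 groups the square of Itgb1 and of Itgb5 is above the circle.

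Among the laminin-binding integrins, Itga6, the alpha 6 subunit, rose in all 3 comparisons with E11.5 PGC, and no other one passed the test without the block. It stood at 9.84 and 11.2 in E11.5 PGC, 62.1 and 76.9 on the Day3 arrays, 67.1 and 73.6 on the Day6 arrays and 42.7 and 55.3 on the EG arrays. The EG arrays were below the Day3 and Day6 arrays and far above E11.5 PGC. Itga6 rose by 2.72 ± 0.28 at Day3, or 6.58-fold (limma adjusted p = 0.0080), by 2.74 ± 0.28 at Day6 (adjusted p = 0.0030) and by 2.21 ± 0.28 in EG (adjusted p = 0.0059). In series A and B the Day3 change was 2.66 and 2.78. The Day6 call held without each array in turn; the EG call was lost without EG replicate 2 (adjusted p = 0.072), and the Day3 call without either E11.5 PGC array or Day3 replicate 2 (up to 0.081). With the block, all 3 calls held without each array.

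Itga3, the alpha 3 subunit, lay between 7.46 and 9.97 on all arrays, and Itga7, the alpha 7 subunit known from muscle, between 132 and 192. Itgb1, the beta 1 subunit that pairs with all of these, was at 68.2 and 199 in E11.5 PGC, then 80.9 and 167 at Day3, 60.0 and 133 at Day6 with 89.3 and 60.8 in EG. Its 3 series B arrays were above all 5 series A arrays, and its change was -0.004 ± 0.64 at Day3, -0.38 ± 0.64 at Day6 and -0.66 ± 0.64 in EG (limma adjusted p of 0.999, 0.79 and 0.56). Within series A the changes were 0.25, -0.18 and 0.11. Itgb4, the other partner of alpha 6, was at 6.37 and 23.9 in E11.5 PGC, 14.5 and 24.5 on the Day3 arrays, 9.11 and 22.5 on the Day6 arrays and 23.7 and 28.6 on the EG arrays. Its change in EG was 1.08 ± 0.69 without the block (adjusted p = 0.37) and 1.74 ± 0.32 with it (adjusted p = 0.013); the change in series A was 2.03, and E11.5 PGC replicate 2 overlapped the EG arrays. That blocked call was lost without E11.5 PGC replicate 1 or EG replicate 2 (adjusted p up to 0.123).

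Itgav, the alpha V subunit of the vitronectin receptors, stood at 22.7 and 19.0 in E11.5 PGC, then 20.9 and 18.0 at Day3, 19.2 and 19.3 at Day6 with 8.96 and 8.52 in EG. The first 6 arrays lay in 1 narrow band and both EG arrays were below it. In EG it fell by 1.25 ± 0.26 from E11.5 PGC, or 2.38-fold (limma adjusted p = 0.025), a call lost without any of the 4 arrays compared (adjusted p up to 0.181). From Day6 to EG the change was -1.14 ± 0.26 without the block (adjusted p = 0.14) and -1.22 ± 0.21 with it (adjusted p = 0.047; -1.14 in series A), and the blocked call was lost without any 1 of the 8 arrays (up to 0.186). Both EG arrays lie in series A, on which the other groups had 22.7, 20.9 and 19.2.

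Of the beta subunits that pair with alpha V, Itgb5 was at 34.1 and 51.5 in E11.5 PGC, 54.9 and 111 on the Day3 arrays, 68.7 and 149 on the Day6 arrays and 46.0 and 58.6 on the EG arrays. In both series it was higher at Day6 than at Day3 and higher at Day3 than in E11.5 PGC. Its change at Day6 was 1.27 ± 0.50 without the block (limma adjusted p = 0.18) and 1.27 ± 0.23 with it (adjusted p = 0.012), with 1.01 (series A) and 1.53 (series B). The blocked call was lost without E11.5 PGC replicate 2 or Day6 replicate 2 (adjusted p up to 0.069). Itgb3, the beta 3 subunit, lay between 63.1 and 145, and its EG and E11.5 PGC arrays overlapped (change in EG -0.11 ± 0.40, limma adjusted p = 0.90). Itgb6 had at most 2.15 and no value on 2 arrays.

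Of the other RGD-binding alpha subunits, which recognise the arginine-glycine-aspartate motif, Itga5 lay between 6.16 and 9.38. Itga8 was at 8.77 and 20.3 on the Day6 arrays and between 11.4 and 23.0 elsewhere. Itga2b, known from platelets, had no value on 1 E11.5 PGC array and at most 4.90 elsewhere. Among the collagen-binding alpha subunits, Itga1 was at 7.04 and 7.61 in E11.5 PGC, then 4.77 and 5.63 at Day3, 3.80 and 4.50 at Day6 with 6.19 and 6.68 in EG. The Day6 arrays were the lowest in both series, and the change at Day6 was -0.82 ± 0.26 (limma adjusted p = 0.10; with the block 0.024). The blocked call was lost without either E11.5 PGC, either Day6 or either EG array (adjusted p up to 0.129). Itga11 lay between 15.2 and 29.0, Itga2 between 3.44 and 5.11, and Itga10 had a value on 2 arrays.

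Most leukocyte integrins lay near or below the level of 4.24. Itgb2 encodes the beta subunit shared by the Itgal, Itgam and Itgax chains. It was at 2.73 and 4.94 in E11.5 PGC and 3.44 and 3.87 on the Day3 arrays. Day6 had 5.37 and 8.36, and EG had 4.78 and 5.06. The Itgb2 change at Day6 was 0.87 ± 0.37 (limma adjusted p = 0.21, with the block 0.039). That blocked call was lost without either E11.5 PGC, either Day6 or either EG array (change 0.64 to 1.09). Itgal reached 6.27, and Itga4, Itgax, Itgam and Itgb2l were at or under 4.55 on every array with a value. Itga9 reached 5.38. Itgb7, which pairs with alpha 4, was at 10.9 and 15.8 in E11.5 PGC, then 14.2 and 11.7 at Day3, 6.62 and 8.75 at Day6 with 18.8 and 16.9 in EG. Its Day6 arrays were the lowest, and its change of 1.23 ± 0.31 from Day6 to EG did not pass the test (adjusted p = 0.17).

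No basement membrane collagen passed the test without the block. Of the 6 tested, limma called 0 at Day3, Day6 or in EG without the block, beside 2.08%, 8.61% and 11.2% of all probes. With so few genes, 0 calls are of the order of the background. Their medians were 0.12, 0.15 and 0.27. At an unadjusted p under 0.05, 2 were higher in EG (Col4a2 and Col7a1), none was lower there, and none differed at Day3 or Day6. Col4a1 and Col4a2 encode the chains of the most common collagen IV, and they lie head to head on chromosome 8 with start sites 21 bases apart on opposite strands (RefSeq, GRCm38.p6). Col4a2 was at 2.49 and 3.97 in E11.5 PGC, 3.16 and 7.30 on the Day3 arrays, 4.06 and 10.7 on the Day6 arrays and 14.7 and 11.9 on the EG arrays. Its change in EG was 2.07 ± 0.58 (adjusted p = 0.063; with the block 2.62 ± 0.27 and adjusted p = 0.0027, and 2.41 in series A). Both E11.5 PGC arrays, Day3 replicate 1 and Day6 replicate 1 were below the level of 4.24. The blocked EG call against E11.5 PGC held without each array. The blocked changes of 1.07 ± 0.25 at Day6 (adjusted p = 0.026) and 1.55 ± 0.27 from Day6 to EG (adjusted p = 0.048) did not: the former was lost without E11.5 PGC replicate 2 or either Day6 array (up to 0.132), the latter without any Day3, Day6 or EG array (up to 0.241).

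Its neighbour Col4a1 was at 9.03 and 6.75 in E11.5 PGC, then 9.91 and 6.88 at Day3, 8.34 and 7.13 at Day6 with 10.4 and 8.56 in EG. The EG and E11.5 PGC arrays overlapped, and the change in EG was 0.27 ± 0.31 (limma adjusted p = 0.63). Col4a5 lay between 12.8 and 20.4 except on Day6 replicate 1 (32.8), and Col4a6, its neighbour, between 2.75 and 7.86. Col15a1 lay between 81.6 and 170.5, and its second probe, left out here, between 4.57 and 8.06. Col7a1, which forms the anchoring fibrils under epithelia, was at 5.38 and 3.65 in E11.5 PGC, 12.1 and 4.70 on the Day3 arrays, 14.6 and 5.59 on the Day6 arrays and 14.3 and 12.2 on the EG arrays. Its changes were 1.03 ± 0.59 at Day6 and 1.58 ± 0.59 in EG (adjusted p of 0.35 and 0.14). With the block they were 1.03 and 1.02 (adjusted p of 0.037 and 0.047), with 1.30 in series A for EG. The blocked Day6 call was lost without any array except E11.5 PGC replicate 2 (adjusted p up to 0.214), and the blocked EG call without E11.5 PGC replicate 1 or any Day3 or EG array (up to 0.401, with a change down to 0.48). Col18a1, Col4a3 and Col4a4 were not analysed here.

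Of 11 fibrillar collagens tested in EG, limma without the block called 1 higher and 0 lower, beside 11.2% of all probes. Of 10 at Day6, 0 were higher and 1 lower, beside 8.61% of all probes. Of 11 at Day3, 0 were called either way (0 higher and 1 lower at an unadjusted p under 0.05), beside 2.08% of all probes called. These counts are of the order of the background. Col5a3, the alpha 3 chain of collagen V, was at 60.2 and 52.0 in E11.5 PGC, then 20.6 and 10.5 at Day3, 15.0 and 5.71 at Day6 with 14.4 and 17.1 in EG. Every cultured array was below both E11.5 PGC arrays. Col5a3 fell by 2.60 ± 0.51 at Day6, or 6.05-fold (limma adjusted p = 0.026), with -2.01 (series A) and -3.18 (series B). That call was lost without either E11.5 PGC array, either EG array or Day6 replicate 2, and held with the block without each array. At Day3 the change was -1.92 ± 0.51 (adjusted p = 0.13; with the block 0.018), and in EG -1.83 ± 0.51 (adjusted p = 0.065; with the block -2.26 ± 0.33 and adjusted p = 0.0068, and -1.94 in series A). The blocked Day3 call was lost without E11.5 PGC replicate 2 or either Day3 array (up to 0.138), and the blocked EG call held without each array.

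Col2a1, the cartilage collagen, was at 24.1 and 21.7 in E11.5 PGC, 13.9 and 18.8 on the Day3 arrays, 31.5 and 35.9 on the Day6 arrays and 46.0 and 56.9 on the EG arrays. The EG arrays were the highest and the Day3 arrays the lowest, with no overlap of groups. Col2a1 rose by 1.16 ± 0.29 in EG (limma adjusted p = 0.044), a call lost without any of the 4 arrays compared. Col24a1 lay between 10.8 and 12.9, Col27a1 between 4.62 and 8.11 and Col11a2 between 2.03 and 5.32. Col11a1 was at or under 2.37 wherever it had a value.

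Among the other fibrillar collagens, 5 were much higher on 1 of the Day6 arrays than on the other, with no call without the block. Col5a1, a chain that starts fibrils, was at 21.2 and 24.4 in E11.5 PGC, then 46.6 and 34.2 at Day3, 189.7 and 43.9 at Day6 with 38.2 and 47.4 in EG. Col5a2 was at 4.72 and 13.6, 18.4 and 18.9, 69.7 and 16.0, and 7.87 and 8.59 in the same order. Both were highest on Day6 replicate 1, while Day6 replicate 2 lay within the range of the Day3 and EG arrays or just below Day3. Col1a1 and Col1a2 encode the chains of collagen I, the main collagen of skin and bone. Col1a1 was at 6.04 and 9.01 in E11.5 PGC, 12.5 and 20.7 on the Day3 arrays, 43.5 and 9.89 on the Day6 arrays and 9.34 and 11.8 on the EG arrays. Col1a2 was at 17.0 and 33.6, 43.1 and 49.6, 129 and 19.9, and 48.1 and 20.9. On Day6 replicate 2 both were below both Day3 arrays.

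Col3a1, the collagen III chain and the chromosomal neighbour of Col5a2, was at 18.7 and 41.1 in E11.5 PGC, then 49.4 and 137 at Day3, 101 and 24.1 at Day6 with 13.5 and 10.4 in EG. It was highest on Day3 replicate 2, and both EG arrays were below all others. Its change from Day3 to Day6 was 1.03 (series A) and -2.51 (series B), and from Day6 to EG -2.06 ± 0.78 (limma adjusted p = 0.33). Over the 10 fibrillar collagens tested, the median change from Day3 to Day6 was 1.11 (series A) and -0.25 (series B). Against E11.5 PGC the Day6 change of Col5a1 was 2.00 ± 0.63 (adjusted p = 0.10; with the block 0.034), with 3.16 (series A) and 0.84 (series B). The blocked call was lost without E11.5 PGC replicate 1, either Day3 array, Day6 replicate 1 or either EG array (adjusted p up to 0.204).

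**Figure D4:**
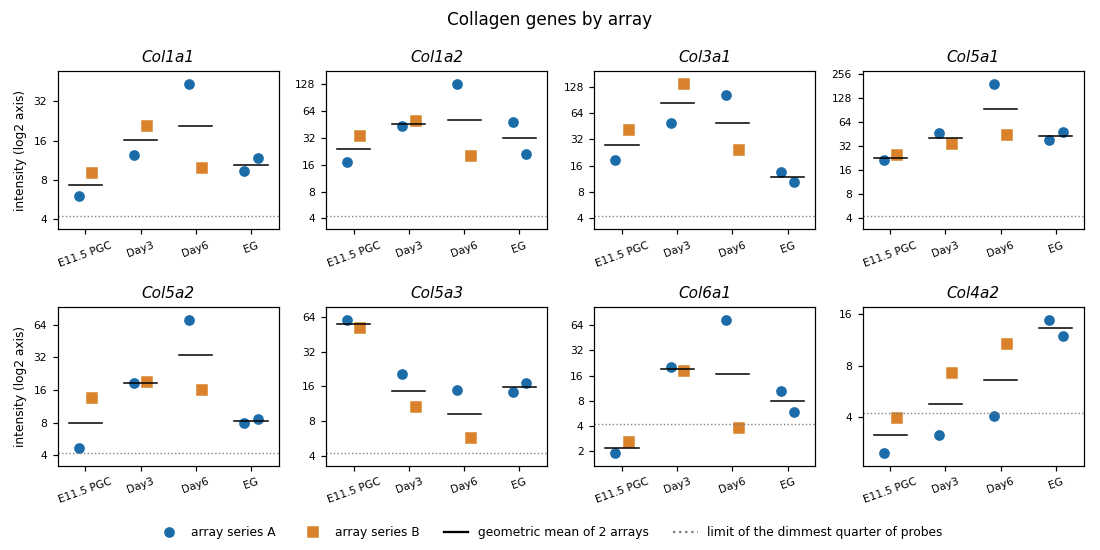
Intensity (log2 axis) of 8 collagen genes on each array; circles are array series A, squares series B, bars the geometric mean of the 2 arrays of a group, and the dotted line the intensity of 4.24 under which the dimmest 5850 probes lie. Col1a1, Col1a2, Col5a1, Col5a2 and Col6a1 are highest on Day6 replicate 1 and lower on Day6 replicate 2, Col5a3 is lower on all cultured arrays, and Col4a2 is highest in EG.

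The Day6 arrays were therefore set apart. Of 65 genes measured on both, 11 were more than 1 (log2) higher on replicate 1 and 9 more than 1 higher on replicate 2, beside 8.84% and 12.8% of all 20649 probes. Among the 10 fibrillar collagens, 6 were more than 1 higher on replicate 1 and 1 was on replicate 2, with a median difference of 1.73, beside -0.05 over all probes. No laminin-binding or collagen-binding integrin differed by more than 1, and Lama4 was the only laminin of 9 that did. The largest difference was that of Col6a1, the alpha 1 chain of collagen VI, at 72.6 against 3.84, or 18.9-fold, where the lower value lies under the level of 4.24 and the fold is uncertain. Col1a2 (6.46-fold), Col1a1 (4.40-fold), Col5a2 (4.37-fold), Col5a1 (4.32-fold), Col3a1 (4.20-fold) and Col16a1 (4.17-fold) followed. In the other direction, Col9a2 was at 6.97 against 37.4, and the log2 differences of Col4a2, Itgb4, Itga8 and Col10a1 lay between -1.40 and -1.17. Day6 replicate 1 lies in series A and replicate 2 in series B. Col9a2, Col4a2, Itgb4, Itga8 and Col10a1 were also lower on the series A array in E11.5 PGC and at Day3, so their differences are not particular to Day6. Col1a1, Col1a2, Col3a1 and Col5a2 were lower on the series A array in those groups, unlike at Day6. The EG replicates, which share a series, differed by more than 1 in 2.99% of these genes, the Day6 replicates in 30.8%, those of Day3 in 13.8% and those of E11.5 PGC in 10.6% (all probes: 3.79%, 21.6%, 18.5% and 12.3%).

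**Figure D5:**
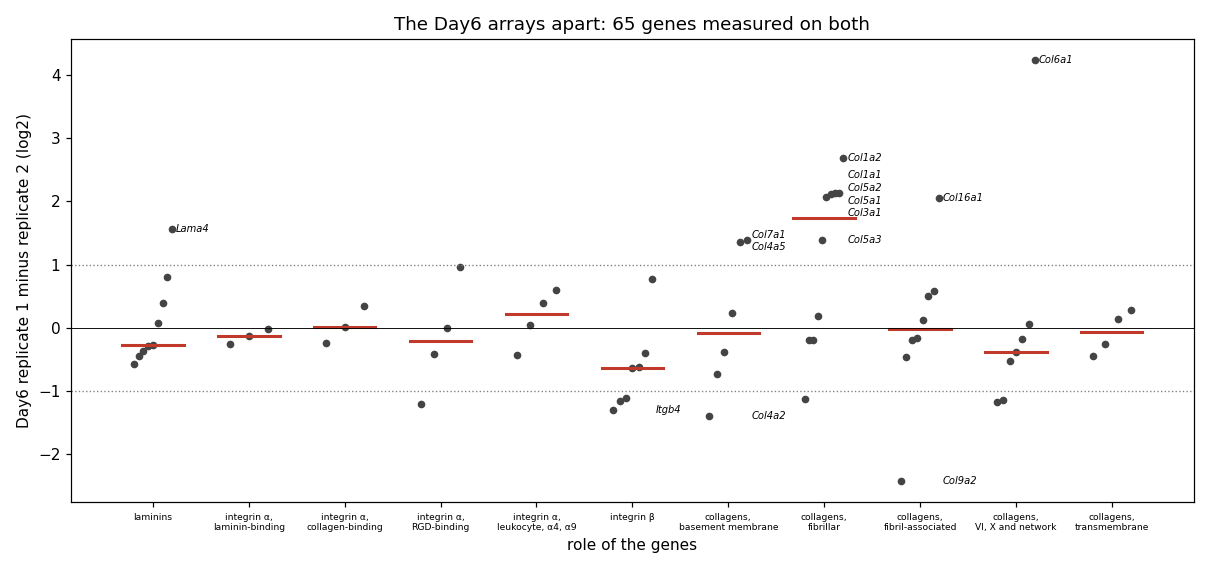
Difference in log2 intensity between Day6 replicate 1 and replicate 2 for the 65 genes measured on both, by role; points are genes, red bars the median of a role, and dotted lines mark -1 and 1. Of the 10 fibrillar collagens 6 lie above 1, Col6a1 is highest at 4.24, and Col9a2 is lowest at -2.42.

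Some non-collagen markers of fibroblasts and mesenchyme differed between the Day6 arrays in the same direction, and others did not. Of the 16 markers of that list that are not collagens, 14 were measured on both Day6 arrays. Of these, 7 were more than 1 higher on replicate 1 and 0 on replicate 2, beside 8.84% and 12.8% of all probes. The median difference of the 14 was 0.92. S100a4 was at 1335 on replicate 1 against 13.2, Thy1 at 747 against 10.7 and Acta2 at 198 against 6.14. In EG, S100a4 was at 808 and 190 and Thy1 at 96.6 and 71.0. Postn was below 4.24 on all arrays, Lum was at 11.4 against 7.52, and Pdgfrb at 41.9 against 44.2. Fn1 was lower on Day6 replicate 1 (1256 against 1750). Twist1 (82.6 against 84.1), Twist2 (69.1 against 64.6) and Fap (6.45 against 6.15) were close. For the 14 markers measured on all arrays, summed intensities were 1141 and 1448 in E11.5 PGC, then 2304 and 1597 at Day3. They were 5404 and 2608 on the Day6 arrays and 2769 and 2024 on the EG arrays. Fn1, Vim, S100a4 and Thy1 made up most of the Day6 sums. Among germ cell markers, 4 of 10 were more than 1 lower on Day6 replicate 1 and 0 more than 1 higher, beside 12.8% and 8.84% of all probes. The list's median difference was -0.26. Dazl was at 188 against 1024 and Dppa3 at 456 against 1648, while Ddx4 was at 187 against 182, Prdm14 at 135 on both and Mael at 164 against 82.4. Mael and Dppa3 were both higher on replicate 1 than on replicate 2 in E11.5 PGC and at Day3. Of 10 pluripotency markers, 3 were more than 1 lower on Day6 replicate 1 and 0 more than 1 higher. Their median difference was -0.54, with Nanog at 4294 against 8992. The part of other cells in the collagen difference between the Day6 arrays was not tested. At Day3, Dcn, the fibroblast proteoglycan decorin, was the 1 gene of 15 tested that was called without the block, beside 2.08% of all probes. It was at 75.9 and 173, while the E11.5 PGC arrays had 4.53 and 8.31.

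Of the 7 collagens of beaded filaments and networks tested in EG, 1 was called without the block, beside 11.2% of all probes. Of 6 at Day3 and 7 at Day6, 0 were called, beside 2.08% and 8.61% of all probes. Col6a4, a collagen VI chain, was at 2.22 and 2.18 in E11.5 PGC, at 3.43 on the 1 Day3 array with a value, 3.41 and 7.51 on the Day6 arrays and 22.7 and 17.3 on the EG arrays. Both EG arrays were well above all others, and both E11.5 PGC arrays were below 4.24. Col6a4 rose by 3.17 ± 0.43 in EG (limma adjusted p = 0.010), a call lost without any of the 4 arrays compared and held with the block without each array. Col6a1 was at 1.94 and 2.56 in E11.5 PGC, then 20.3 and 18.1 at Day3, 72.6 and 3.84 at Day6 with 10.4 and 5.96 in EG. Its Day3 change of 3.11 ± 1.17 did not pass the test (adjusted p = 0.28), and the SE carries the spread of the Day6 arrays. Col6a2, its chromosomal neighbour and partner chain, lay between 5.73 and 11.7, and Col6a3, the third chain of that trimer, between 3.35 and 5.40. Col8a2 was at 64.8 and 58.5 in E11.5 PGC and between 30.4 and 47.6 on the cultured arrays. Col10a1 and Col26a1 lay between 4.20 and 13.1 and between 11.8 and 22.5.

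Fibril-associated collagens sit on the surface of fibrils. Limma without the block called 0 of 8 or 9 of them in any comparison. Against E11.5 PGC, 2.08% of all probes were called at Day3, 8.61% at Day6 and 11.2% in EG. At an unadjusted p under 0.05, 1 of these collagens was higher and 1 lower at Day3, 1 was higher at Day6 and 2 were higher in EG. Col16a1 was at 3.93 and 5.61 in E11.5 PGC, 19.1 and 12.8 on the Day3 arrays, 42.5 and 10.2 on the Day6 arrays and 20.4 and 12.4 on the EG arrays. Every cultured array was above E11.5 PGC, and its change at Day6 was 2.15 ± 0.66 (adjusted p = 0.097; with the block 0.040). The blocked call was lost without E11.5 PGC replicate 1, either Day3 array, Day6 replicate 1 or either EG array (up to 0.228). Col9a2, a chain of the cartilage collagen IX, was at 10.4 and 12.4 in E11.5 PGC, then 2.30 and 3.37 at Day3, 6.97 and 37.4 at Day6 with 16.5 and 35.9 in EG. The Day3 arrays were the lowest, and the changes of -2.03 ± 0.76 at Day3 (adjusted p = 0.28) and 2.54 ± 0.76 from Day3 to Day6 (adjusted p = 0.32) did not pass.

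Col9a1, another chain of collagen IX, was at 45.9 and 30.8 in E11.5 PGC, 29.8 and 17.2 on the Day3 arrays, 25.4 and 18.0 on the Day6 arrays and 25.7 and 25.4 on the EG arrays. Its changes at Day6 and in EG were -0.81 ± 0.38 and -0.56 ± 0.38 (limma adjusted p of 0.25 and 0.40; with the block -0.81 and -0.87, adjusted p of 0.027 and 0.029). Both blocked calls were lost without either E11.5 PGC array or either EG array, the Day6 call also without either Day6 array (adjusted p up to 0.141) and the EG call also without either Day3 array (up to 0.144). Col20a1 was at 12.5 and 8.16 in E11.5 PGC, then 11.7 and 7.40 at Day3, 17.9 and 11.9 at Day6 with 24.4 and 22.4 in EG. The EG arrays were the highest, with a change of 1.21 ± 0.37 (adjusted p = 0.085; with the block 0.90 ± 0.20 and adjusted p = 0.023, lost without any of the 4 arrays compared, up to 0.142). Col9a3, Col12a1 and Col14a1 lay between 22.7 and 39.2, 12.3 and 19.6, and 46.5 and 103. The transmembrane collagens Col13a1, Col17a1, Col23a1 and Col25a1 gave no call with or without the block. Against E11.5 PGC, 2.08% to 11.2% of all probes were called without the block and 8.34% to 23.8% with it.

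Genes that make and link the matrix were followed from lists of non-members. Nid1, nidogen 1, which binds the laminin gamma 1 chain and collagen IV, was at 36.4 and 30.9 in E11.5 PGC, 114 and 84.7 on the Day3 arrays, 960.1 and 399 on the Day6 arrays and 306 and 453 on the EG arrays. The groups did not overlap between E11.5 PGC and Day3 or between Day3 and either later group. Nid1 rose by 4.21 ± 0.46 at Day6 (limma adjusted p = 0.0037) and by 3.47 ± 0.46 in EG (adjusted p = 0.0067). Nid2 lay between 323 and 771 and was highest in E11.5 PGC. Among the 23 other matrix genes tested at Day6, 3 rose (Nid1, Fbln5 and Thbs2) and 0 fell, with a list median of 0.44 and 8.61% of all probes called. Among 22 in EG, Nid1 and Spp1 (osteopontin) rose and Npnt, nephronectin, fell, with a median of -0.15 and 11.2% of all probes called.

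Of 18 genes for collagen processing, 2 rose and 1 fell at Day6, and 2 rose and 1 fell in EG. Their medians were 0.26 and 0.26, beside 8.61% and 11.2% of all probes called. Serpinh1, the collagen chaperone of that list, was not among the genes measured. Pcolce, which enhances cleavage of the C-propeptide of fibrillar procollagens, was at 7.52 and 9.73 in E11.5 PGC, then 97.0 and 60.7 at Day3, 451 and 48.6 at Day6 with 219 and 142 in EG. It rose by 4.11 ± 0.92 at Day6 (limma adjusted p = 0.038) and 4.37 ± 0.92 in EG (adjusted p = 0.028). P3h1, a prolyl 3-hydroxylase, rose by 1.24 ± 0.27 at Day6, and P3h3 by 1.42 ± 0.35 in EG. Plod1, a lysyl hydroxylase, fell by 1.31 ± 0.26 at Day6 and 1.20 ± 0.26 in EG. On the Day6 arrays Pcolce was 9.29-fold, Loxl1 (a crosslinking lysyl oxidase) 27.3-fold and Bgn (biglycan) 14.8-fold higher on replicate 1. These differ in the same direction as the fibrillar collagens. Of 18 processing genes, 5 were more than 1 higher there and 0 more than 1 lower, beside 8.84% and 12.8% of all probes. Bgn belongs to the other matrix genes, of which 4 of 23 were more than 1 higher there. In that list 2 were more than 1 lower, Agrn (14.7 against 35.5) and Vtn (5.23 against 11.8).

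Of 19 genes for the adhesion complex inside the cell, 2 rose and 0 fell at Day6, and 2 rose and 2 fell in EG, with medians of 0.12 and 0.08, beside 8.61% and 11.2% of all probes called. Ilk (named integrin-linked kinase) and Lims1 (PINCH1) encode 2 members of the complex that holds integrin tails, and both fell in EG. Ilk was at 492 and 451 in E11.5 PGC, 376 and 279.6 on the Day3 arrays, 234 and 223 on the Day6 arrays and 107 and 112 on the EG arrays. Its groups did not overlap, and it fell by 2.11 ± 0.27 in EG (limma adjusted p = 0.0061). Lims1 was at 30.0 and 48.6 in E11.5 PGC and 6.79 and 8.61 in EG, and fell by 2.32 ± 0.51 (adjusted p = 0.031). Tns1, tensin 1, rose by 1.96 ± 0.41 at Day6 and 1.87 ± 0.41 in EG, Parvb, beta-parvin, by 1.25 ± 0.32 in EG and Fermt2, kindlin 2, by 1.21 ± 0.28 at Day6. With the block, 5 rose and 5 fell of 19 at Day6, beside 23.8% of all probes called.

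Col19a1 had a value on 4 arrays, all at or under 1.46, Col6a6 on 3, at or under 2.26, Col22a1 lay between 1.11 and 7.30 on all 8, and Itgbl1 had a value on 1 array. Col8a1, Col28a1, Col6a5, Itgb8, Itgad and Itgae were not analysed here.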

How the data were processed

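RNA was measured on 8 one-colour arrays (4 groups of 2, Cy5 label, per the labels). The deposited values are spot intensities on a linear scale. How background was corrected and arrays scaled is not given in the sources used here, and 11674 missing cells stayed missing. Probe names came from the platform table, updated through RefSeq: 16631 of 23473 probes had 1 symbol. Log2 intensities were fitted per probe with limma 3.58.1 (R 4.3.3) over all arrays, by two-sided moderated tests, and p-values were adjusted (Benjamini-Hochberg) over all probes measured on both arrays of both groups. The fit was tested on simulated data. The array series was added as a block in an alternative; deviations of same-numbered arrays from their group means correlated at 0.620 between E11.5 PGC and Day3, 0.547 between E11.5 PGC and Day6 and 0.694 between the cultured groups, over 19524 probes, and at -0.0246 to 0.0611 with EG, so the array names pair the first 3 groups only. Other alternatives were a pseudocount of 2.275, quantile scaling, the mean of all probes, a filter that drops the 5850 dimmest probes, a trended robust fit, arrays of the compared groups alone, and each array left out. The text names 20 genes set by list, members called in any comparison, the 3 highest and 3 lowest changes per comparison, the largest Day6 differences and the brightest members of each group. The members and lists were chosen with earlier results of these data known.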

Additional observations from a re-analysis of the deposited data

How the results depend on the processing

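The counts of genes called were 2 at Day3, 4 at Day6 and 7 in EG against E11.5 PGC, and 0 for Day6 against Day3 and for EG against Day6. With the array series as a replicate block they were 6, 12, 14, 1 and 2. The block kept all 13 calls. With the arrays of the compared groups alone the counts were 1 at Day3 and 14 in EG; the adjusted p then passed 0.05 for Itga6, Day3 against E11.5 PGC (0.0565), for Lama5, Day3 against E11.5 PGC (0.104) and for Col5a3, Day6 against E11.5 PGC (0.0801). Without 1 array the counts ran from 0 to 3 at Day3, from 2 to 8 at Day6 and from 0 to 11 in EG, and stayed at 0 for the other comparisons. With the block and without 1 array they ran from 1 to 10 (5 without either EG array), from 6 to 11 (9 without either Day3 array) and from 7 to 15, at 0 for Day6 against Day3 and from 0 to 2 for EG against Day6. The cause of these differences was not tested. Quantile scaling, the mean of all probes, the pseudocount, the trended robust fit and the filter on dim probes gave 2 or 3 calls at Day3, 4 at Day6 and 7 or 8 in EG. No called change of a single gene turned its sign in the alternatives run, but medians near 0 did: with the block the median of EG against Day6 went from 0.08 to -0.22 over laminins and from -0.11 to 0.07 over integrins, and that of EG against E11.5 PGC over fibrillar collagens from 0.04 to -0.06. The median over all the genes at Day3, -0.01, was 0.03 under quantile scaling and up to 0.12 without 1 array. Genes under an intensity of 4.24 have the least certain changes.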
